A study of Mus musculus with 13 samples.

Results

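The expression of 7 genes of intestinal sugar handling was described in the mouse duodenum, the uppermost stretch of the small intestine. They were the sugar transporters Slc5a1, Slc2a5 and Slc2a2, the fructose enzymes Khk and Tkfc, and the glucose-forming enzymes Fbp1 and Pck1. A probe set, the array's unit of measurement, was taken where the platform annotation gave it exactly 1 gene symbol equal to one of these names. Where a gene had several, the one that read highest on average across all 13 arrays was used. All 7 genes were measured, among 12393 genes tested. Slc5a1 and Pck1 had a second probe set, and the other 5 had 1 each.

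Samples were total RNA of duodenum from wild-type mice and from mutant mice, which the series' design text calls ViRas, all on a mixed strain background. The sources used here do not give the promoter or cell type in which the mutation is active. Diets began at 5 weeks of age and lasted 22 weeks. Wild-type arrays numbered 2 for normal diet, 2 for high-fat diet and 1 for high-fat diet plus butyrate, a short-chain fatty acid of gut bacteria. Mutant arrays numbered 3, 2 and 3 for the same diets. Nothing in the labels says how many animals gave each sample, so the p-values speak only of the spread among these arrays, which may be technical. The array identifiers run in a different number range for each diet, so diet and array series cannot be told apart. By its title, the series is about intestinal tumours under the combined influence of mutation and high-fat diet.

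The absorptive cells of the small intestine take up dietary glucose and galactose together with sodium through Slc5a1 (SGLT1) and take up fructose through Slc2a5 (GLUT5). Both transporters sit in the brush border, and Slc2a2 (GLUT2) in the opposite membrane lets sugars pass on to the blood. Inside the cell, Khk (ketohexokinase) phosphorylates fructose, aldolase splits the product, and Tkfc (triokinase and FMN cyclase) phosphorylates the glyceraldehyde that results. Fbp1 (fructose-1,6-bisphosphatase) and Pck1 (cytosolic phosphoenolpyruvate carboxykinase) catalyse steps of glucose synthesis, through which the small intestine can turn fructose carbon into glucose.

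The start regions of 4 genes are shown because the results turn on them: Tkfc was the member that differed most with the high-fat diet, Khk is the first enzyme of its pathway, and Slc2a2 and Fbp1 varied together over the arrays. The sequences are RefSeq's for the assembly GRCm38.p6, from 250 bases before to 50 bases after the annotated start, 5′ to 3′ on the strand of the gene. The members lie on chromosomes 2, 3, 4, 5, 13 and 19, and all 7 matched the RefSeq table. Capitals mark every match to 1 of 6 motifs searched on both strands. The E-box was searched as CACGTG, the HNF1 motif as GTTAAT and the nuclear receptor motif as AGGTCA. The HNF4 site was searched as CAAAGTCCA, the GATA site as AGATAA and the TATA box as TATAAA. No 2 marked matches overlap.
Tkfc, chr19:10604209-10604508, minus strand: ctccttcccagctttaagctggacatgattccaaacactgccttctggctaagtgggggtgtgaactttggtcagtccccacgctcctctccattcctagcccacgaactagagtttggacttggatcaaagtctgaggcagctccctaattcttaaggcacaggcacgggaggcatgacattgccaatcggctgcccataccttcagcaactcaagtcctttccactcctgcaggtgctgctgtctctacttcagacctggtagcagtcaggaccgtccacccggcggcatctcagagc
Khk, chr5:30921309-30921608, plus strand: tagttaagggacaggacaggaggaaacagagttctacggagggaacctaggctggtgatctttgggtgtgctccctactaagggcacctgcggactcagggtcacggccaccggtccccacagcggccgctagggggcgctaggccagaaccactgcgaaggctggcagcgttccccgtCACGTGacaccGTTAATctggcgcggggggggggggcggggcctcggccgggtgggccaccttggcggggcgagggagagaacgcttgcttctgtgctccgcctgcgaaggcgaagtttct
Slc2a2, chr3:28697653-28697952, plus strand: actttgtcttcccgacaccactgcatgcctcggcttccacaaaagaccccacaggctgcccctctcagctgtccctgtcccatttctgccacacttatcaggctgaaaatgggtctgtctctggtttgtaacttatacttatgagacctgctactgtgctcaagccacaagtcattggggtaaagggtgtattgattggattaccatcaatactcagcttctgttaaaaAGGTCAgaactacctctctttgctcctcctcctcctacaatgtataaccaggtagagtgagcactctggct
Fbp1, chr13:62888233-62888532, minus strand: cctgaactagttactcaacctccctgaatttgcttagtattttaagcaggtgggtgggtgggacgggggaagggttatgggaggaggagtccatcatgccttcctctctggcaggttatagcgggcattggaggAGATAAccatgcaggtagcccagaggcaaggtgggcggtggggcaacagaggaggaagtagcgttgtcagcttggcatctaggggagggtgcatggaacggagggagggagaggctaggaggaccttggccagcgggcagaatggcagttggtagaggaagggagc

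The Tkfc window held none of the 6 motifs, nor did that of Slc2a5. In Khk, an E-box began at base -71 and an HNF1 motif at base -60, counted from the start. In Slc5a1, whose window is not printed, an E-box began at base -143. The Slc2a2 window held a nuclear receptor motif at base -21, and the Fbp1 window a GATA site at base -116. Pck1 held an HNF1 motif and a GATA site on the reverse strand, at bases -192 and -169. Among 32851 mouse promoter windows of the same length, 7.15% held the E-box, 7.1% the HNF1 motif, 16.3% the nuclear receptor motif, 0.475% the HNF4 site, 11.2% the GATA site and 13.6% the TATA box. These matches are letters in a window, and no binding was measured.

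As a check of the labelled tissue, 11 measured enterocyte genes had a mean of 12.6 to 13.0 (log2) on all arrays. Of 4 genes chosen as markers of the distal small intestine, the ileal bile acid importer Slc10a2 read 2.01 to 2.28 and the ileal bile acid binding protein Fabp6 2.93 to 4.01, both near the bottom of the values. The bile acid receptor Nr1h4 read 6.83 to 8.23, and the bile acid exporter subunit Slc51a read 9.45 to 10.41. Values are the authors' RMA levels on a log2 scale, where a difference of 1 is a 2-fold change, and they ran from 1.76 to 14.2 over all probe sets. Array medians lay between 6.04 and 6.14, and arrays of a group correlated with r of at least 0.983 across genes. The mean of 13 acinar pancreas genes ran from 5.61 to 13.1 and differed widely within groups. The mean of 11 immune cell genes ran from 6.80 to 8.42. In samples of whole tissue, fewer cells of a type and less RNA per cell cannot be told apart. Differences are given with the standard error of limma's fit and with p-values adjusted (Benjamini-Hochberg) over all 12393 genes. A gene passed where its adjusted p was under 0.05.

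Slc5a1, the sodium-coupled glucose transporter, was the steadiest of the 3 transporters over the arrays. In wild-type mice its level was 12.46 and 12.38 on the normal diet, 12.62 and 12.60 on the high-fat diet, and 12.64 on high-fat diet plus butyrate. In mutants it was 12.18, 12.19 and 11.95 on the normal diet, 12.32 and 12.37 on the high-fat diet, and 12.73, 12.16 and 12.65 with butyrate. Without butyrate, every mutant array lay below both wild-type arrays of its own diet, whereas with butyrate 2 of 3 mutant arrays lay above the wild-type array. The range over 13 arrays was 0.78, a 1.72-fold span, and 54.0% of all genes had a smaller one. By group mean the wild-type butyrate array came first at 12.64 and the normal-diet mutants last at 12.10 ± 0.14 (SD, n = 3). The butyrate mutants, at 12.51 ± 0.31 (SD, n = 3), overlapped with the groups next to them. The second Slc5a1 probe set read between 10.004 and 11.36, and its differences are given where they change a direction or a call.

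Slc2a5, the fructose transporter, was highest on normal diet. Wild-type arrays read 9.78 and 10.23 on the normal diet, 9.15 and 8.98 on the high-fat diet and 9.23 with butyrate. Mutant arrays read 9.63, 9.83 and 9.38 on the normal diet, 9.29 and 9.04 on the high-fat diet, and 9.32, 9.41 and 9.38 with butyrate. All 5 normal-diet arrays lay above all 4 high-fat arrays, and the butyrate arrays, between 9.23 and 9.41, overlapped with both. The group means ran from 10.01 ± 0.32 (SD, n = 2) in normal-diet wild type to 9.06 ± 0.12 (SD, n = 2) in high-fat wild type, and most groups that follow each other in that order overlapped. The exception was the pair of butyrate groups, where 3 mutant arrays lay above the single wild-type array.

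Slc2a2, the exit transporter, was lower in mutants than in wild type on each diet. Its wild-type levels were 11.44 and 11.51 on the normal diet, 11.53 and 11.12 on the high-fat diet and 11.84 with butyrate. Its mutant levels were 10.87, 11.17 and 10.63 on the normal diet, 10.96 and 10.47 on the high-fat diet, and 11.72, 11.02 and 11.59 with butyrate. No mutant array reached the wild-type arrays of its own diet. Mutant butyrate arrays 1 and 3 nevertheless lay above all 4 wild-type arrays of the other diets. The lowest group mean was that of high-fat mutants (10.72 ± 0.34, SD, n = 2), and it overlapped with normal-diet mutants (10.89 ± 0.27, SD, n = 3).

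Khk, the enzyme that commits fructose to its own pathway, varied little. In wild type the level was 11.15 and 10.89 on the normal diet, 11.03 and 11.12 on the high-fat diet and 11.14 with butyrate. In mutants the level was 10.67, 10.81 and 10.77 on the normal diet, 10.61 and 10.76 on the high-fat diet, and 11.04, 10.75 and 11.07 with butyrate. The mutant arrays lay below the wild-type arrays in each diet, and mutant butyrate arrays 1 and 3 read highest among the mutants. The range over all arrays was 0.54, a 1.45-fold span, and 20.6% of genes had a smaller one.

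Tkfc, the glyceraldehyde kinase, separated the high-fat arrays from all others. Levels in wild type were 8.29 and 8.18 on the normal diet, 10.35 and 10.75 on the high-fat diet and 8.41 with butyrate. Levels in mutants were 7.82, 8.08 and 8.01 on the normal diet, 10.30 and 9.81 on the high-fat diet, and 8.08, 8.32 and 8.33 with butyrate. The lowest of the 4 high-fat arrays lay 1.41 above the highest of the other 9. Of all genes, 782 (6.31%) were likewise higher on each high-fat array than on each other array, and 1137 were lower on each. Among the higher ones, 12 genes, Tkfc included, had a gap at least as wide. Its 7.59-fold span over the arrays exceeded that of 98.7% of genes. RefSeq places the gene Cyb561a3 over part of Tkfc, and Cyb561a3 was not among the genes measured here. The neighbouring gene Ddb1, a subunit of a DNA-damage-binding complex, read 8.91 to 9.24 on high-fat arrays and 8.71 to 9.09 on the others.

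Fbp1, the bisphosphatase, was lowest in high-fat mutants. On wild-type arrays it read 10.27 and 9.88 on the normal diet, 9.73 and 9.30 on the high-fat diet and 9.95 with butyrate. On mutant arrays it read 9.20, 9.78 and 9.30 on the normal diet, 9.06 and 8.24 on the high-fat diet, and 10.24, 9.12 and 9.82 with butyrate. The mutant groups lay below wild type without overlap on normal and on high-fat diet, and around the single wild-type array with butyrate. The mean of high-fat mutants was 8.65 ± 0.58 (SD, n = 2), and both of its arrays lay below every array of the other groups, while the first 5 groups in the order overlapped from one to the next.

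Pck1, the carboxykinase, moved most within groups. The wild-type values were 10.17 and 9.61 on the normal diet, 9.44 and 7.70 on the high-fat diet and 9.46 with butyrate. The mutant values were 9.95, 10.09 and 9.84 on the normal diet, 9.73 and 10.11 on the high-fat diet, and 10.78, 9.26 and 9.55 with butyrate. The high-fat wild-type mean of 8.57 ± 1.23 (SD, n = 2) rests on array 2 of that group, which read lower than any other array. The second Pck1 probe set read between 2.25 and 2.86, near the bottom of the values, and is not used further.

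**Figure D1:**
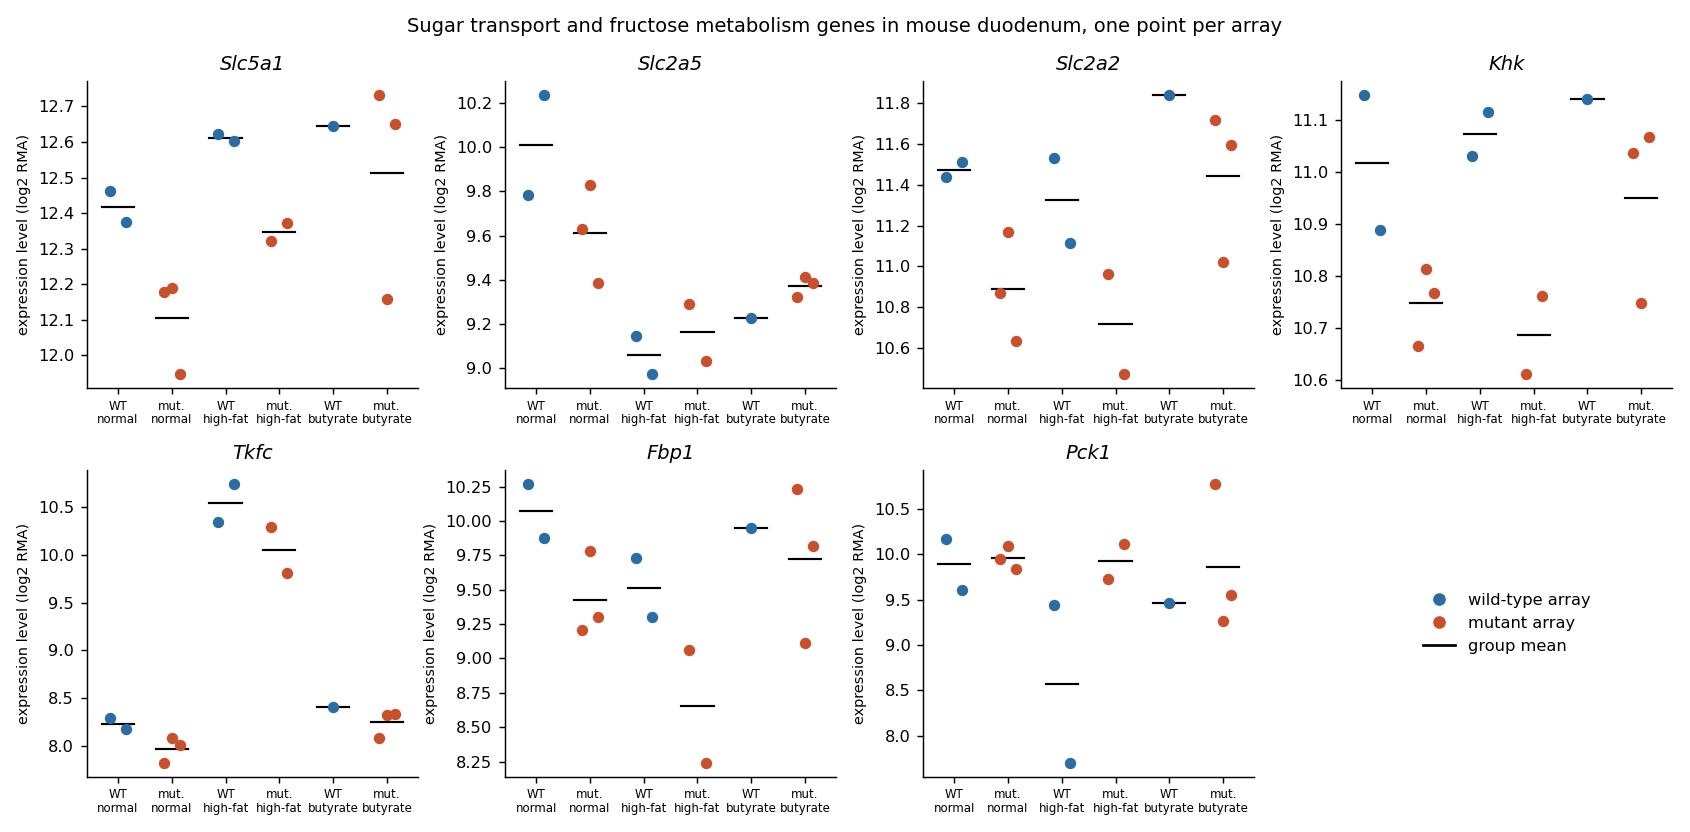
Expression level (log2 RMA) of each of the 7 genes, 1 point per array, with groups of genotype and diet along the horizontal axis, wild type in blue, mutants in orange and a bar at each group mean. The vertical axes differ between genes and do not start at 0. The Tkfc points on high-fat diet lie between 9.81 and 10.75, and all other Tkfc points lie at or below 8.41.

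The genotype comparison asks how mutant duodenum differs from wild type. With diet as a term, 6 of the 7 genes had a negative difference, mutant minus wild type, in the fit of 8 mutant and 5 wild-type arrays, as had 48.5% of all genes. None of the 7 passed the threshold, where 1.02% of all genes passed in either direction. Slc2a2 differed by -0.54 ± 0.14 (1.46-fold, adjusted p = 0.0695) and Khk by -0.29 ± 0.07 (1.22-fold, adjusted p = 0.0721). Fbp1 differed by -0.61 ± 0.20 (adjusted p = 0.144), Tkfc by -0.32 ± 0.10 (adjusted p = 0.143) and Slc5a1 by -0.25 ± 0.09 (adjusted p = 0.17). The difference was -0.09 ± 0.12 for Slc2a5 (adjusted p = 0.763) and 0.59 ± 0.32 for Pck1 (adjusted p = 0.402). Of the 7, 5 had an unadjusted p under 0.05, as did 16.5% of all genes. The median difference of the 7 was -0.29, beside 0.00505 over all genes. Without mutant butyrate array 1, Slc2a2 passed (adjusted p = 0.0379).

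Among the 9 arrays of normal and high-fat diet alone, Slc5a1, Slc2a2 and Khk were lower in mutants by the test, 3 of 7 where 2.39% of all genes were lower and 4.63% passed in either direction. This selection of arrays was among the alternatives, and its use as a result was chosen with the data seen. Slc5a1 fell by 0.29 ± 0.07 (1.22-fold, adjusted p = 0.0355), Slc2a2 fell by 0.59 ± 0.13 (1.51-fold, adjusted p = 0.0362) and Khk fell by 0.32 ± 0.08 (1.25-fold, adjusted p = 0.04). Fbp1, at -0.74 ± 0.19, missed the threshold (adjusted p = 0.0522). All 3 calls rest on few arrays, and the second Slc5a1 probe set, at -0.50 ± 0.14, missed the threshold (adjusted p = 0.0729). Leaving out 1 of the 9 arrays at a time left between 0 and 2 of the members past the threshold. Slc2a2 passed in 3 of 9 such fits, Khk in 1, Slc5a1 in 0 and Fbp1 in 3. Their differences kept their sign in all 9, from -0.31 to -0.25 for Slc5a1, -0.68 to -0.51 for Slc2a2, -0.39 to -0.28 for Khk and -0.87 to -0.58 for Fbp1.

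Within single diets no member passed, where 0.0242% of genes passed on the normal diet and 0.0403% on the high-fat diet. On normal diet, 5 of 7 members had all mutant arrays below both wild-type arrays, as had 12.4% of all genes, and the exceptions were Slc2a5 and Pck1. On high-fat diet 5 of 7 were lower without overlap, beside 20.2% of all genes. These were again Slc5a1, Slc2a2, Khk, Tkfc and Fbp1. Pck1 was higher in high-fat mutants without overlap, by 1.35 ± 0.53 (adjusted p = 0.381), as were 24.2% of genes. The largest of the falls was that of Fbp1 on high-fat diet, at -0.86 ± 0.36 (adjusted p = 0.4). On butyrate, where the single wild-type array is assumed to vary like the other groups, limma called 0 members and 0 genes at all. There, 749 genes (6.04%), and 0 members, had an unadjusted p under 0.05. The 3 members Slc2a2, Khk and Tkfc, lay below the wild-type array on all 3 mutant arrays, beside 28% of all genes, and Slc2a5 lay above it, beside 22.6%.

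The test of whether the genotype difference itself changed between normal and high-fat diet called none of the 7 genes, where 0.00807% of all genes passed. Its largest member values were 1.28 ± 0.72 for Pck1 (adjusted p = 0.915) and 0.50 ± 0.23 for Slc2a5 (unadjusted p = 0.0554, adjusted p = 0.915). For Slc2a2 the value was -0.02 with a 95% interval from -0.76 to 0.72, so a change of moderate size in either direction was not detectable with these arrays.

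**Figure D2:**
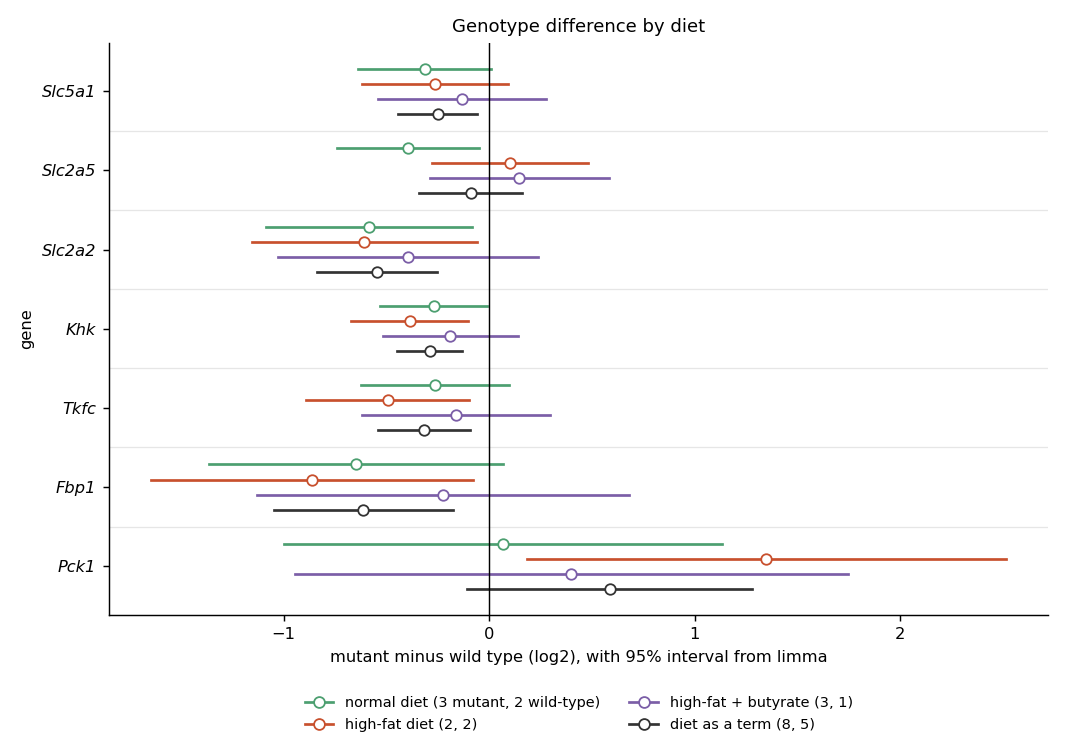
Difference between mutant and wild-type arrays (log2, horizontal axis) for each gene, with the 95% interval of limma's fit, for each of the 3 diets and with diet as a term. None of the open circles passed the threshold. The values for Slc2a2 lie between -0.61 and -0.39, and Pck1 alone lies above 0 in all 4 rows.

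Other genes of sugar handling gave the same count of 0 with diet as a term. None of 13 measured sugar transporters, 13 genes of fructose and sorbitol metabolism or 17 of glucose synthesis passed. Nor did any of 13 genes of ChREBP (a sugar-sensing transcription factor) and its targets, 17 regulators or 2 disaccharidases. The same held for 5 genes of the sodium pump that drives Slc5a1 and of potassium channels, the latter being Kcne3 and Kcnq1. The smallest p among the transporters was that of the inositol carrier Slc5a11 (-0.70 ± 0.20, adjusted p = 0.1), and among regulators that of Cebpa, a liver and gut differentiation factor (0.42 ± 0.10, adjusted p = 0.0621). Of 11 immune cell genes, 2 were lower in mutants, the macrophage lysozyme Lyz2 (-1.28 ± 0.25, adjusted p = 0.0412) and the leukocyte phosphatase Ptprc (-0.81 ± 0.17, adjusted p = 0.0477). The mean of those 11 genes was 8.27 to 8.42 in normal-diet wild type against 7.17 to 7.48 in normal-diet mutants, and 7.86 to 8.04 against 6.80 to 7.35 on high-fat diet. With butyrate it was 7.64 against 7.25 to 7.93. Its part in the member differences was not tested. The mean of 11 enterocyte genes differed little between the genotypes, at 12.78 to 12.92 against 12.76 to 12.90 on the normal diet and 12.84 to 13.03 against 12.95 to 13.04 on high-fat diet. The acinar pancreas mean was 11.1 and 13.0 in high-fat wild type and 5.63 and 10.5 in high-fat mutants, and its part was not tested either.

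The high-fat comparison asks how the duodenum differed between high-fat and normal-diet arrays, where diet and array series cannot be told apart. Tkfc rose in both genotypes, and the fructose transporter Slc2a5 fell in wild type. In wild type 2 of 7 members passed, beside 11% of all genes. Tkfc rose by 2.32 ± 0.18 (4.98-fold, adjusted p = 6.75e-05, 2 arrays against 2), which placed it ninth of all genes by p. Slc2a5 fell by 0.95 ± 0.17 (1.93-fold, adjusted p = 0.00694). Pck1 differed by -1.32 ± 0.53 (adjusted p = 0.138), and its value was -0.45 without high-fat wild-type array 2 and -2.19 without array 1 (adjusted p = 0.0346). The Slc2a5 call was lost without high-fat wild-type array 2 (adjusted p = 0.0595).

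In mutants 1 of 7 passed, beside 17.7% of all genes. Tkfc rose by 2.09 ± 0.16 (4.24-fold, adjusted p = 6.38e-05, 2 arrays against 3). Slc2a5, at -0.45 ± 0.16, missed the threshold (adjusted p = 0.0722), although its high-fat arrays lay below its normal-diet arrays, and it passed without normal-diet mutant array 3 (adjusted p = 0.046). Fbp1 differed by -0.77 ± 0.33 (adjusted p = 0.128). The difference between the genotypes in the Tkfc rise was -0.23 with a 95% interval from -0.77 to 0.31. Slc5a1, Slc2a2 and Khk differed by 0.24, -0.17 and -0.06, and none of these passed.

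With both genotypes in 1 fit of 9 arrays and genotype as a term, chosen with the data seen, 4 of 7 passed, beside 29.6% of all genes. Tkfc rose by 2.19 ± 0.12 (4.56-fold, adjusted p = 3.73e-06) and Slc2a5 fell by 0.68 ± 0.14 (1.60-fold, adjusted p = 0.00544), and both passed in each of 9 fits that left out 1 array. Fbp1 fell by 0.68 ± 0.19 (adjusted p = 0.0209) and passed in 7 of 9. Slc5a1 rose by 0.22 ± 0.07 (adjusted p = 0.0293) and passed in 4 of 9. The second Slc5a1 probe set gave -0.042 (adjusted p = 0.858) in this fit, so the direction depends on the probe set. The count was 2 without high-fat wild-type array 2 and 2 without high-fat mutant array 2. Khk, at -0.01 with a 95% interval from -0.18 to 0.16, and Slc2a2, at -0.16 with an interval from -0.46 to 0.14, did not pass. Tkfc and Khk, which act in the same pathway, thus lay at 2.19 and -0.01. The Tkfc neighbour Ddb1 differed by 0.22 in wild type and 0.15 in mutants and passed in neither.

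**Figure D3:**
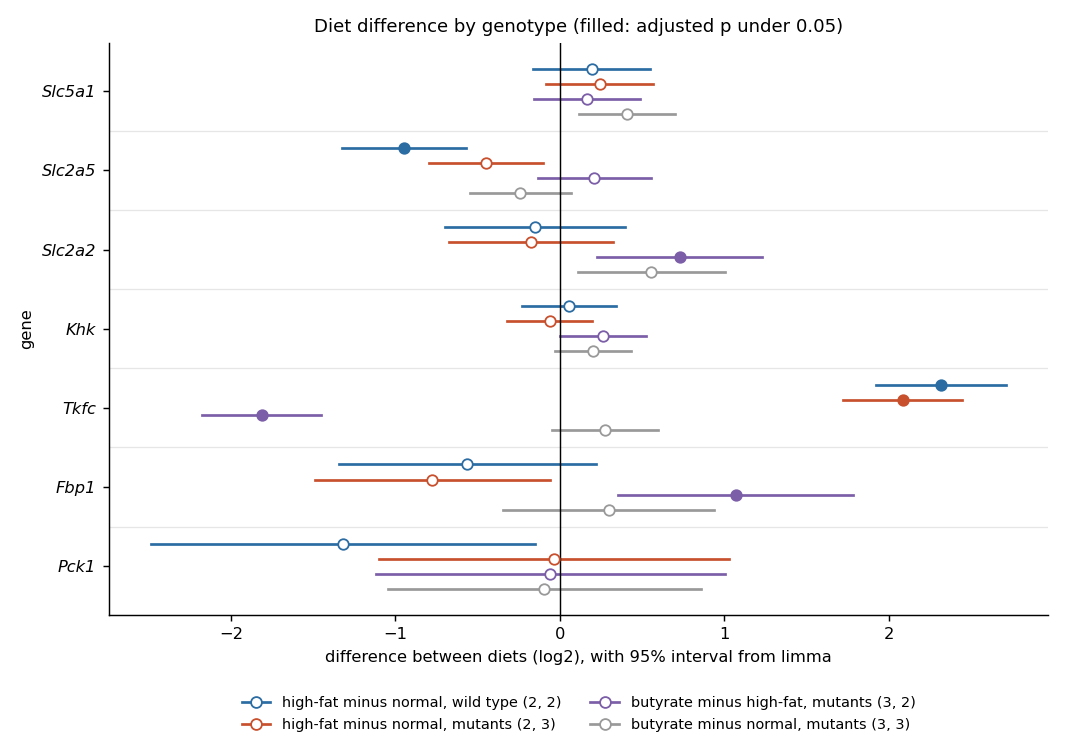
Difference between diets (log2, horizontal axis) for each gene with the 95% interval of limma's fit, as high-fat minus normal diet in wild type and in mutants and as butyrate minus high-fat and butyrate minus normal diet in mutants. Filled circles have an adjusted p under 0.05. Tkfc lies at 2.32 and 2.09 for the high-fat diet, at -1.81 for added butyrate and at 0.27 for butyrate against normal diet.

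Several listed enzymes of the neighbouring pathways rose on the high-fat diet in both genotypes. Of all genes, 5.62% rose and 5.42% fell in wild type, and 7.67% rose and 10.1% fell in mutants. Of 13 ChREBP genes 3 rose and none fell in each genotype. They were Pklr, the liver-type pyruvate kinase (0.73 ± 0.13 in wild type, 0.81 ± 0.11 in mutants), Tm6sf2, a factor in lipoprotein secretion (0.56 and 0.55), and Gpd2, the mitochondrial glycerol phosphate dehydrogenase (0.95 and 0.84). Their adjusted p ranged from 0.00123 to 0.0232. Of 13 fructose and sorbitol genes 2 rose in wild type and 4 in mutants. Gpd1, the cytosolic glycerol phosphate dehydrogenase, rose by 0.83 and 0.75, and hexokinase Hk1 by 0.83 and 0.63. In mutants lactate dehydrogenase Ldha (0.34) and Glyctk (0.42), the glycerate kinase that acts on another product of glyceraldehyde, passed too. Of 2 disaccharidases 1, the trehalase Treh, rose by 0.68 and 0.57. The median over the 13 ChREBP genes was -0.07 in wild type and -0.12 in mutants, beside -0.04 and -0.02 over all genes.

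Of 13 sugar transporters none passed in wild type, where Slc2a1, a widely expressed glucose transporter, had the smallest p (-1.02 ± 0.33, adjusted p = 0.0755). In mutants the sugar efflux carrier Slc50a1 fell by 0.65 ± 0.16 (adjusted p = 0.0195). Of 17 glucose synthesis genes none passed in wild type, and in mutants pyruvate carboxylase Pcx rose by 0.75 and glutamine synthetase Glul fell by 0.82. Of 17 regulators Cebpa (0.93 and 1.05) and Gata4, a factor of the upper intestine (1.02 and 0.84), rose in both genotypes, and Ppara, a fatty acid sensor (1.11), and Sp1 (0.96) rose in mutants. Of the 5 genes of the sodium pump and of potassium channels, the channel subunit Kcne3 fell in mutants by 1.37 ± 0.17 (adjusted p = 0.000747). The mean of 7 duodenal marker genes moved with the same arrays, at 9.30 to 10.9 on high-fat diet against 7.88 to 9.26 on all others. Gata4 is also one of these markers, so the regulators and the markers are not separate observations for that gene. Of these 7 genes, 3 rose in wild type and 5 in mutants, and 0 fell by the test. The iron importer Slc11a2 rose by 3.16 and 4.22. The marker Cybrd1 read 8.17 and 7.47 in high-fat wild type against 5.45 and 5.40 in normal-diet wild type. In mutants Cybrd1 read 11.44 and 9.76 on high-fat diet against 6.21 to 6.32 on normal diet. Another marker, Slc40a1, read 10.35 and 10.25 in high-fat wild type against 10.67 and 10.71 in normal-diet wild type. In mutants Slc40a1 went the other way, at 11.96 and 11.21 on high-fat diet against 10.26, 10.32 and 10.66 on normal diet. Tff2 ran from 6.16 to 13.64 over the arrays and differed widely within groups. The part of these markers in the member differences was not tested.

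**Figure D4:**
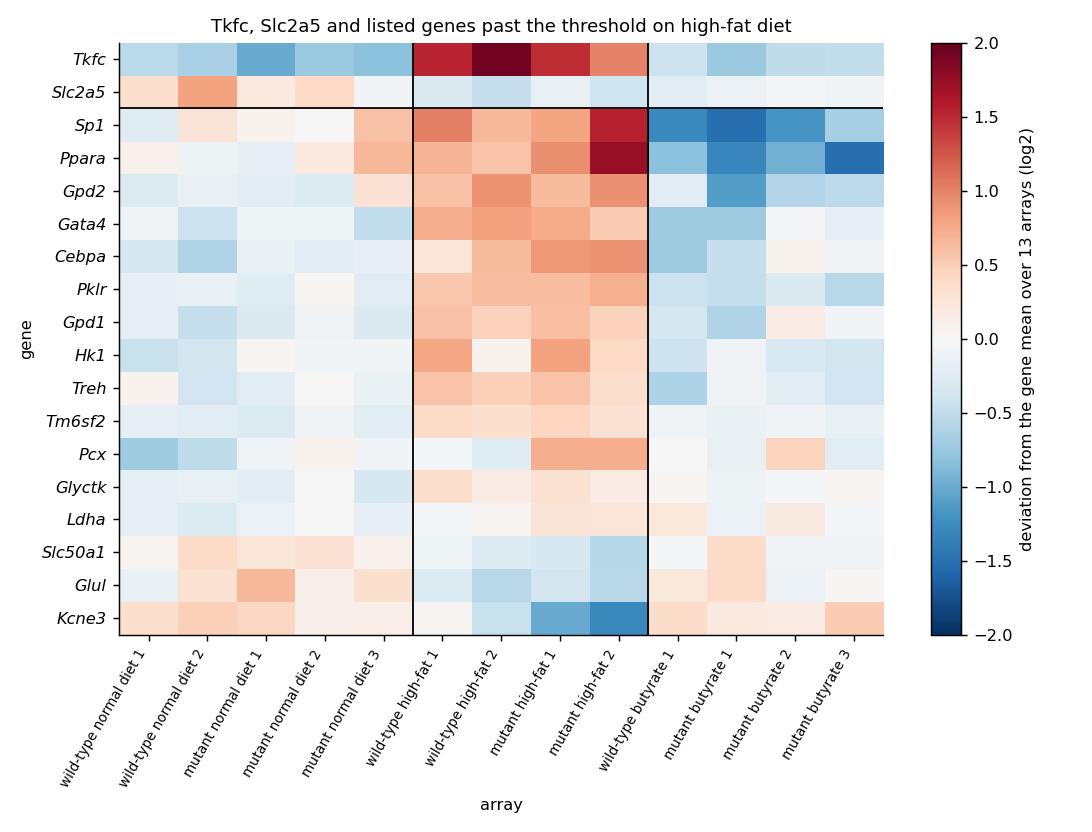
Deviation of Tkfc, Slc2a5 and 16 listed genes from their own mean over 13 arrays (colour, log2), with arrays along the horizontal axis grouped by diet. The listed genes shown are those past the threshold in at least 1 genotype on high-fat diet. Tkfc is raised on the 4 high-fat arrays and on no butyrate array.

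The butyrate comparison asks how mutant arrays with butyrate differed from high-fat mutant arrays. Here too, diet and array series cannot be told apart. Tkfc was lower and Fbp1 and Slc2a2 were higher with butyrate. Of 7 members 3 passed, beside 21.7% of all genes. Tkfc fell by 1.81 ± 0.16 (3.51-fold, adjusted p = 6.49e-05, 3 arrays against 2) and kept that call whichever of the 5 arrays was left out. Fbp1 rose by 1.07 ± 0.33 (2.10-fold, adjusted p = 0.0369) and Slc2a2 by 0.73 ± 0.23 (1.66-fold, adjusted p = 0.0413), and each passed in 2 of 5. Neither passed without high-fat mutant array 2 (adjusted p of 0.296 and 0.291), without butyrate mutant array 1 (0.116 and 0.128) or without butyrate mutant array 3 (0.0938 and 0.116). Without butyrate mutant array 2, which lay lowest for Slc5a1, Slc2a2, Khk, Fbp1 and Pck1, 5 of 7 passed. Slc5a1 then rose by 0.34 (adjusted p = 0.0271) and Khk by 0.36 (adjusted p = 0.0337). With all arrays, Khk differed by 0.26 ± 0.12 (adjusted p = 0.139), Slc2a5 by 0.21, Slc5a1 by 0.17 and Pck1 by -0.06, and none of these passed.

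Set against normal diet, mutants on high-fat diet plus butyrate showed 0 of 7 members past limma's threshold, beside 1.57% of all genes, and 2 of 7 at an unadjusted p under 0.05, beside 17.1%. Tkfc differed by 0.27 ± 0.15 (adjusted p = 0.372) and Slc2a5 by -0.24 ± 0.14 (adjusted p = 0.421). Slc2a2 differed by 0.56 ± 0.20 (adjusted p = 0.194) and Slc5a1 by 0.41 ± 0.13 (adjusted p = 0.151), and both passed without butyrate mutant array 2 (adjusted p of 0.0393 and 0.00605). The 3 diet comparisons in mutants share arrays, so their values are given side by side only. For Tkfc they were 2.09, -1.81 and 0.27, and for Fbp1 -0.77, 1.07 and 0.30.

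With butyrate 8.78% of all genes fell and 12.9% rose. Of 13 ChREBP genes 3 were lower and 1 higher, of 13 fructose and sorbitol genes 3 and 0, and of 17 glucose synthesis genes 3 and 1. In either direction 21.7% of all genes passed. Whether these lists differ from all genes was not tested. Gpd2 fell by 1.51 ± 0.21, Pklr fell by 1.11 ± 0.11 and Tm6sf2 fell by 0.48 ± 0.09, while Mlxipl, the gene of ChREBP itself, rose by 1.17 ± 0.22 (adjusted p = 0.00365). Among fructose and sorbitol genes Hk1 (-0.85), Gpd1 (-0.70) and the aldolase Aldoa (-0.60) fell. Among glucose synthesis genes Pcx (-0.70), the carrier Slc25a10 (-0.49) and the transaminase Gpt2 (-0.69) fell and the lactate carrier Slc16a1 rose by 0.39. Of 17 regulators 5 fell, led by Ppara (-2.59) and Sp1 (-2.29). Slc50a1 rose by 0.52, Kcne3 by 1.44 and the sodium pump subunit Atp1b3 by 0.34. Of 11 immune cell genes 4 were higher and 1 lower, with Ptprc up by 1.24 ± 0.28 (adjusted p = 0.009). The immune list mean was 7.25 to 7.93 with butyrate against 6.80 to 7.35 on high-fat diet, and its part in the rises of Fbp1 and Slc2a2 was not tested.

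Slc2a2 and Fbp1, whose start regions are printed above, ran together over the arrays, with r = 0.87 over 13 arrays and r = 0.90 for deviations from group means. Other member pairs also ran together. Over 13 arrays r was 0.78 for Slc5a1 and Khk (0.69 for deviations). It was 0.75 for Slc2a2 with Khk (0.28 for deviations) and 0.75 with Slc5a1 (0.73 for deviations). The points share arrays, groups and normalization, so these values are a description. The 2 genes whose levels were most like those of Slc2a2 were Col14a1, a collagen of connective tissue (r = 0.95), and Ptprc (r = 0.94). For Fbp1 they were the leukocyte genes Lpxn and Klrd1 (r = 0.96 for both). Klrd1 read 7.33 and 6.84 in normal-diet wild type and 5.42 and 4.85 in high-fat mutants, the groups where Fbp1 was highest and lowest. Within the fructose pathway Khk and Tkfc did not run together (r = 0.05), and Tkfc and Slc2a5 ran in opposite directions (r = -0.64), though not within groups (r = 0.11 for deviations).

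The genes most like Khk were Akr1c14 and Hlf, a circadian output factor (r = 0.95 for both), and Akr1c14 read 5.86 to 6.62 in high-fat mutants against 8.13 to 8.29 in high-fat wild type. Those most like Slc5a1 were Vwa1 (r = 0.96) and Glrx, a glutaredoxin (r = 0.93). For Slc2a5 they were Mrps18a and the cytokine inhibitor Socs3 (r = 0.92 for both), and for Pck1 Gramd4 (r = 0.89) and Vnn1, a pantetheinase (r = 0.86). Tkfc was most like Trim30d and Lipe, the hormone-sensitive lipase (r = 0.97 for both). Lipe read 8.90 to 9.27 on high-fat arrays and 7.49 to 7.90 on the others. Within groups the likeness to Tkfc was weaker, with r of 0.40 for Trim30d and 0.58 for Lipe.

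**Figure D5:**
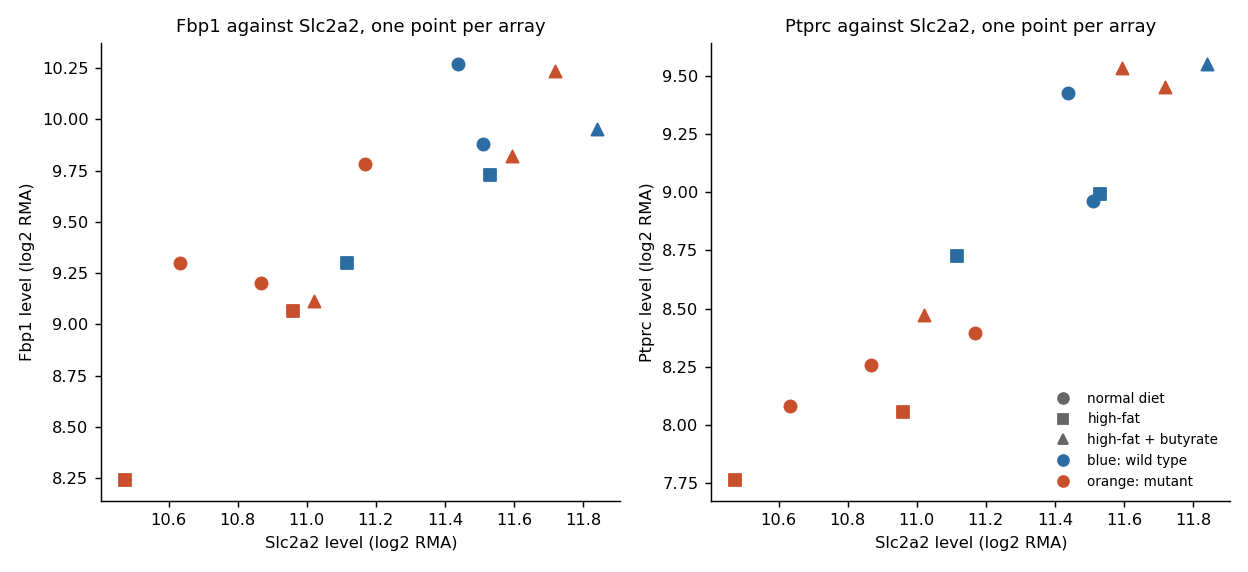
Levels (log2 RMA) of Fbp1 and of the leukocyte gene Ptprc on the vertical axes against the level of Slc2a2, 1 point per array, with colour for genotype and shape for diet. High-fat mutant array 2 is lowest for all 3 genes, and r is 0.87 for Fbp1 and 0.94 for Ptprc over 13 arrays.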

How the data were processed

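The values were the deposited log2 expression levels of Affymetrix probe sets, made by the authors with Affymetrix Expression Console 1.1 and RMA (background correction, quantile normalization, probe summary), per the submitters' processing notes. The sources used here name no genome build for the probe sets. Of 22690 probe sets, 20380 had exactly 1 symbol in the platform annotation, and 64 control probe sets were left out. Each of 12393 genes was represented by its probe set of highest average level. The gene that the mutation affects is not analysed here.

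Groups came from genotype and diet in the labels. Differences were tested two-sided with limma 3.58.1 in R 4.3.3 (linear fit, then eBayes with a trend on intensity), and p-values were adjusted over all genes by Benjamini-Hochberg, with 0.05 as threshold. All 13 arrays entered each fit, with 6 group means or with diet and genotype as terms. The number of arrays limits the precision. Names followed a rule: the 7 members always, up to 4 listed genes per list and comparison past the threshold with the smallest p (at most 2 where none passed), and the 2 genes most correlated with each member. The members and gene lists were chosen with earlier results of these data known. The labels do not say whether replicate numbers pair the arrays. Deviations of same-numbered arrays correlated between -0.33 and 0.41, but groups shared only 2 or 3 numbers, too few to decide it.

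On simulated data, 50 genes of 12393 were changed by each size, with independent noise on each array and no other group differences. The high-fat comparison in mutants found 20%, 72% and 96% of those changed by 0.5, 1 and 2 on the log2 scale. The genotype comparison with diet as a term found 78%, 94% and 100%. Real arrays may share errors and differ by diet, so these shares need not hold for the data. Alternatives were quantile normalization, testing without the dimmest genes (below percentile 30 of mean level), averaging the probe sets of a gene, no intensity trend, the replicate block, the compared arrays alone, no butyrate arrays, and each array left out. Added after seeing the data were the 2 fits of 9 arrays and the other Slc5a1 probe set. Promoter windows came from RefSeq.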

Additional observations from a re-analysis of the deposited data

How the results depend on the processing

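Of the values of single members under all alternatives, 796 kept their direction and their side of the threshold, 42 lost the threshold, 13 gained it and 35 changed sign. The sign of a called value changed only for Slc5a1 (high-fat diet, 9 arrays), at -0.042 with its other probe set. The number of members past the threshold with diet as a term was 3 without the butyrate arrays. With the compared arrays alone it fell from 2 to 1 for the high-fat diet in wild type (Slc2a5, adjusted p = 0.0892) and from 3 to 1 for added butyrate (Slc2a2 and Fbp1, adjusted p = 0.0938 and 0.102). Leaving out 1 array at a time gave 0 to 1 members with diet as a term, 1 to 3 for the high-fat diet in wild type, 1 to 2 in mutants, 1 to 5 for added butyrate, 0 to 2 for butyrate against normal diet, 0 to 2 for genotype on 9 arrays and 2 to 4 for diet on 9 arrays. The wild-type butyrate array cannot be left out of the genotype comparison on butyrate.

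The replicate block moved 1 call: Slc2a2 with added butyrate (0.76, adjusted p = 0.0519), which took that count from 3 to 2. It also turned Pck1 there to 0.052. It changed no other call of a member, and the array without a number was set apart in it. Whether the numbers pair the arrays is not known. No block could be fitted for the genotype comparison on butyrate.

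Quantile normalization turned Pck1 on high-fat diet in mutants to 0.0027. The other Slc5a1 probe set gave -0.14 for the high-fat diet in wild type and -0.015 for added butyrate. With 1 array left out, the sign changed in these ranges. For Pck1 they were -0.21 to 0.35 (genotype, normal diet), -0.056 to 0.70 (genotype, butyrate), -0.23 to 0.15 (high-fat, mutants), -0.51 to 0.24 (added butyrate) and -0.55 to 0.21 (butyrate against normal diet). For Slc2a5 they were -0.17 to 0.034 (diet as a term) and -0.026 to 0.23 (genotype, high-fat). For genotype on butyrate they were -0.24 to 0.046 (Slc5a1) and -0.48 to 0.078 (Fbp1). For the high-fat diet they were -0.36 to 0.058 (Slc2a2) and -0.075 to 0.18 (Khk) in wild type, -0.42 to 0.070 (Slc2a2) and -0.14 to 0.013 (Khk) in mutants and -0.067 to 0.037 (Khk, 9 arrays). For the interaction they were -0.27 to 0.22 (Slc2a2), -0.62 to 0.20 (Fbp1), -0.47 to 0.011 (Tkfc), -0.25 to 0.013 (Khk) and -0.030 to 0.091 (Slc5a1). The cause was not tested.

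Counts over all genes were 127 (2 to 574 over the alternatives) with diet as a term, 3 (0 to 174), 5 (3 to 11) and 0 (0 to 0) for genotype on normal, high-fat and butyrate diets, 1368 (116 to 1553) and 2197 (990 to 2876) for the high-fat diet in wild type and mutants, 2685 (1317 to 3041) for added butyrate, 195 (39 to 627) for butyrate against normal diet and 1 (1 to 10) for the interaction.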
